A study of Arabidopsis thaliana with 39 samples.

Results

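The comparison described here set root epidermis after 18 h on -Fe medium against root epidermis at the start of the experiment. All seedlings were the Columbia (Col-0) pWER::GFP line of *Arabidopsis thaliana*, in which the promoter of the WEREWOLF gene drives a green fluorescent protein in the epidermis and, as is known for this promoter, in the lateral root cap. The -Fe 18 h group had grown for 7 days on +Fe medium and then for 18 h on -Fe medium, and the 0 h group was harvested on +Fe medium at 7 days. A further group, +Fe 18 h, was moved at 7 days to fresh +Fe medium for the same 18 h. The -Fe medium contained ferrozine at 300 μM, an iron chelator. The sample labels say that it lacked FeEDTA, whereas the study's methods list FeEDTA for both media, so whether iron was absent or chelated is not settled. Roots of every group were turned into protoplasts and GFP-positive cells were sorted. The comparison used 6 of the 39 libraries of the series, 3 for each of its 2 groups, and all 806 genes of the deposited table, of which none was filtered out.

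For each gene and group a single RPKM value is given, the reads of a gene scaled to its length and to the size of the library. Values of single libraries were not analysed here, so no value below has a spread, a test or a p-value, and each difference lies between 2 single values. The table is named as one of differentially expressed genes, so shares of the 806 do not describe all expressed genes. The read depth is unknown. In sorted material fewer cells of a type and less RNA per cell cannot be told apart. Going from 0 h to 18 h on -Fe medium joins the lower iron supply with the transfer, with 18 h of growth and with another hour of the day, which cannot be told apart in this comparison. The +Fe 18 h group shares the transfer and the time, and its values are therefore given beside those of -Fe 18 h. Both are set against the same 0 h values.

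Roots of *Arabidopsis* take up iron by reduction. Epidermal cells pump out protons, reduce ferric iron at the surface with FRO2 and import ferrous iron through IRT1. The FIT protein, in complexes with bHLH38, bHLH39 and related factors of subgroup Ib, switches these genes on when iron is short, while ferritins, which store iron in plastids, are lowered.

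The labelled cell type could be checked with few markers. Of 27 markers of epidermis and root hair 3 were in the table, and WER itself was not analysed here. GL2, a regulator of hairless cells, was at 173 RPKM at -Fe 18 h and 189 RPKM at 0 h. TTG2 was at 89.7 RPKM at -Fe 18 h and 65.7 RPKM at 0 h, and GL3, a partner of WER, at 32.6 and 19.9 RPKM. None of these ratios passed the threshold used below. Of 23 markers of other root cell types 1 was in the table. This was the root cap factor BRN1, at 2057 RPKM at -Fe 18 h, 1972 RPKM at +Fe 18 h and 1601 RPKM at 0 h. The share of root cap cells in the sorted material was not tested.

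Each difference is given as a log2 ratio after 1 was added to both RPKM values, a scale on which differences of low genes come out too small. A ratio of at least 0.75 was counted as higher and a ratio of at most -0.75 as lower. Between -Fe 18 h and 0 h, 88 genes were higher (10.9% of the 806), 83 were lower (10.3%) and 635 passed neither limit. The median ratio over all genes was 0.02, the quartiles were -0.36 and 0.40, and 283 genes (35.1%) lay within 0.25 of no difference. Ratios of 2 or more were reached by 17 genes, and ratios of -2 or less by 3. Between +Fe 18 h and 0 h, 129 genes were higher (16%) and 105 lower (13%), with a median of 0.00. The direct comparison of -Fe 18 h with +Fe 18 h counted 55 genes as higher (6.82%) and 92 as lower (11.4%).

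**Figure D1:**
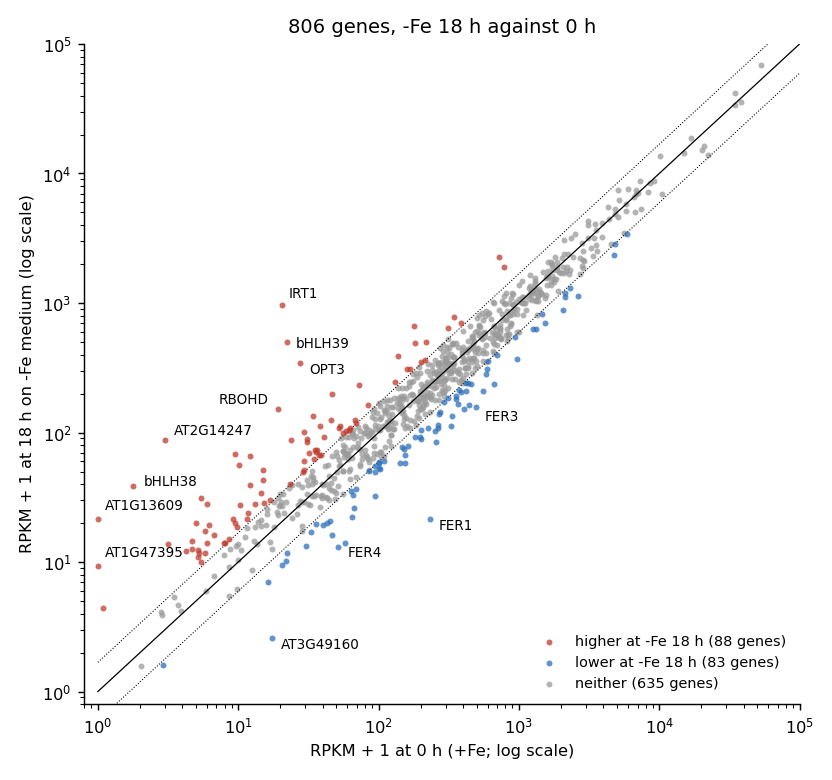
RPKM + 1 of each of the 806 genes at 18 h on -Fe medium (vertical axis, log scale) against 0 h (horizontal axis, log scale), 1 point per gene and 1 value per group. The solid line marks equal values and the dotted lines the log2 ratio limits of 0.75 and -0.75, with 88 genes above, 83 below and 635 between them. IRT1 stands farthest above the line (5.55) and FER1 farthest below it (-3.42).

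Most of the largest rises were those of iron uptake genes. Of 40 genes listed for iron uptake and its regulation 18 were in the table, and 12 of them were higher at -Fe 18 h, 1 was lower and 5 passed neither limit. Over all genes 10.9% were higher and 10.3% lower. The median ratio of the 18 was 1.89, against 0.02 over all genes. On +Fe medium at 18 h, 4 of the 18 were higher than at 0 h and 2 lower, against 16% and 13% over all genes. Their median was 0.19, against 0.00 over all genes. The table is one of differentially expressed genes of these libraries, so the count is no independent evidence of a direction.

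IRT1 (AT4G19690; TAIR10.1 chr4:10707344-10709015), the main importer of ferrous iron, had the largest ratio of the table. It was at 959 RPKM at -Fe 18 h, 35.4 RPKM at +Fe 18 h and 19.5 RPKM at 0 h. The ratio was 5.55 on -Fe medium and 0.83 on +Fe medium, a 49.2-fold and a 1.82-fold difference in RPKM. IRT2 (AT4G19680), its neighbour on the chromosome and a transporter of the same family, was at 55.0 RPKM at -Fe 18 h and 9.17 RPKM at 0 h, a ratio of 2.46. At +Fe 18 h IRT2 was at 6.01 RPKM, a ratio of -0.54.

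All members of the Ib factors that were in the table were higher. bHLH39 (AT3G56980; TAIR10.1 chr3:21086390-21087710) was at 495 RPKM at -Fe 18 h, 67.7 RPKM at +Fe 18 h and 21.2 RPKM at 0 h, ratios of 4.48 and 1.63. bHLH38 (AT3G56970; chr3:21084035-21085245) was at 37.7 RPKM at -Fe 18 h, 1.09 RPKM at +Fe 18 h and 0.79 RPKM at 0 h, ratios of 4.44 and 0.23. Its exons share 386 of 1082 bases (35.7%) with PIP5K4 on the opposite strand, so its values are less certain. bHLH101 (AT5G04150) was at 133 RPKM at -Fe 18 h, 36.8 RPKM at +Fe 18 h and 32.9 RPKM at 0 h, with a ratio of 1.99 on -Fe medium and 0.16 on +Fe medium. The 3 genes thus ended at unlike levels per length, and bHLH39 was the highest of them at -Fe 18 h. FIT (AT2G28160), with which they act, was at 809 RPKM at -Fe 18 h, 701 RPKM at +Fe 18 h and 851 RPKM at 0 h, a ratio of -0.07 on -Fe medium.

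The listed transporters OPT3, MTP3 and COPT2 were higher as well. OPT3 (AT4G16370; chr4:9247302-9250343), which loads iron into the phloem, was at 345 RPKM at -Fe 18 h, 38.5 RPKM at +Fe 18 h and 26.6 RPKM at 0 h, ratios of 3.65 and 0.52. MTP3 (AT3G58810), which sequesters zinc in the vacuole, was at 67.6 RPKM at -Fe 18 h, 9.26 RPKM at +Fe 18 h and 8.52 RPKM at 0 h, ratios of 2.85 and 0.11. COPT2 (AT3G46900), a copper importer, was at 64.3 RPKM at -Fe 18 h, 4.21 RPKM at +Fe 18 h and 11.1 RPKM at 0 h. Its ratios of 2.44 and -1.21 lay past the limits on opposite sides of 0 h. The ferric reductase genes differed in size. FRO3 (AT1G23020), a mitochondrial reductase, had a ratio of 0.89 and FRO4 (AT5G23980), which reduces copper at the root surface, a ratio of 1.65 at 13.6 RPKM against 3.65 RPKM. FRO2 (AT1G01580), the reductase of iron uptake, did not pass the limit, with 489 RPKM at -Fe 18 h, 382 RPKM at +Fe 18 h and 354 RPKM at 0 h and a ratio of 0.47.

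Further listed genes completed the group. AT1G47395, listed as IMA2, had a value of 0 at 0 h and reached 8.26 RPKM at -Fe 18 h and 1.18 RPKM at +Fe 18 h. AT1G74770 is listed as BTSL1 and annotated as a zinc ion binding protein. It was at 101 RPKM at -Fe 18 h, 40.8 RPKM at +Fe 18 h and 28.4 RPKM at 0 h, ratios of 1.79 and 0.51. It shares 471 exon bases with AT1G74750 on the opposite strand. DGAT3 (AT1G48300), annotated as a diacylglycerol acyltransferase, had ratios of 1.06 and 0.31. Besides FRO2 and FIT, the members that passed neither limit were BTS (0.31), an E3 ligase that restrains the response, NRAMP4 (0.55), which exports iron from the vacuole, and the coumarin synthesis gene F6'H1 (AT3G13610, 0.07). F6'H1 had a ratio of 0.88 on +Fe medium, with 45.3 RPKM at -Fe 18 h, 80.1 RPKM at +Fe 18 h and 43.0 RPKM at 0 h, so that -Fe 18 h stood below +Fe 18 h with a ratio of -0.81. AHA7 (AT3G60330), a plasma membrane proton pump, was the listed gene that was lower, at 9.18 RPKM at -Fe 18 h and 20.9 RPKM at 0 h. Its exons share 134 bases with a gene on the opposite strand. They share 56 with AT3G00950 on the same strand, so its values are less certain. AHA7 was lower still at +Fe 18 h, at 4.03 RPKM. Its ratio was -1.10 on -Fe medium and -2.12 on +Fe medium, and -Fe 18 h stood 1.02 above +Fe 18 h.

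**Figure D2:**
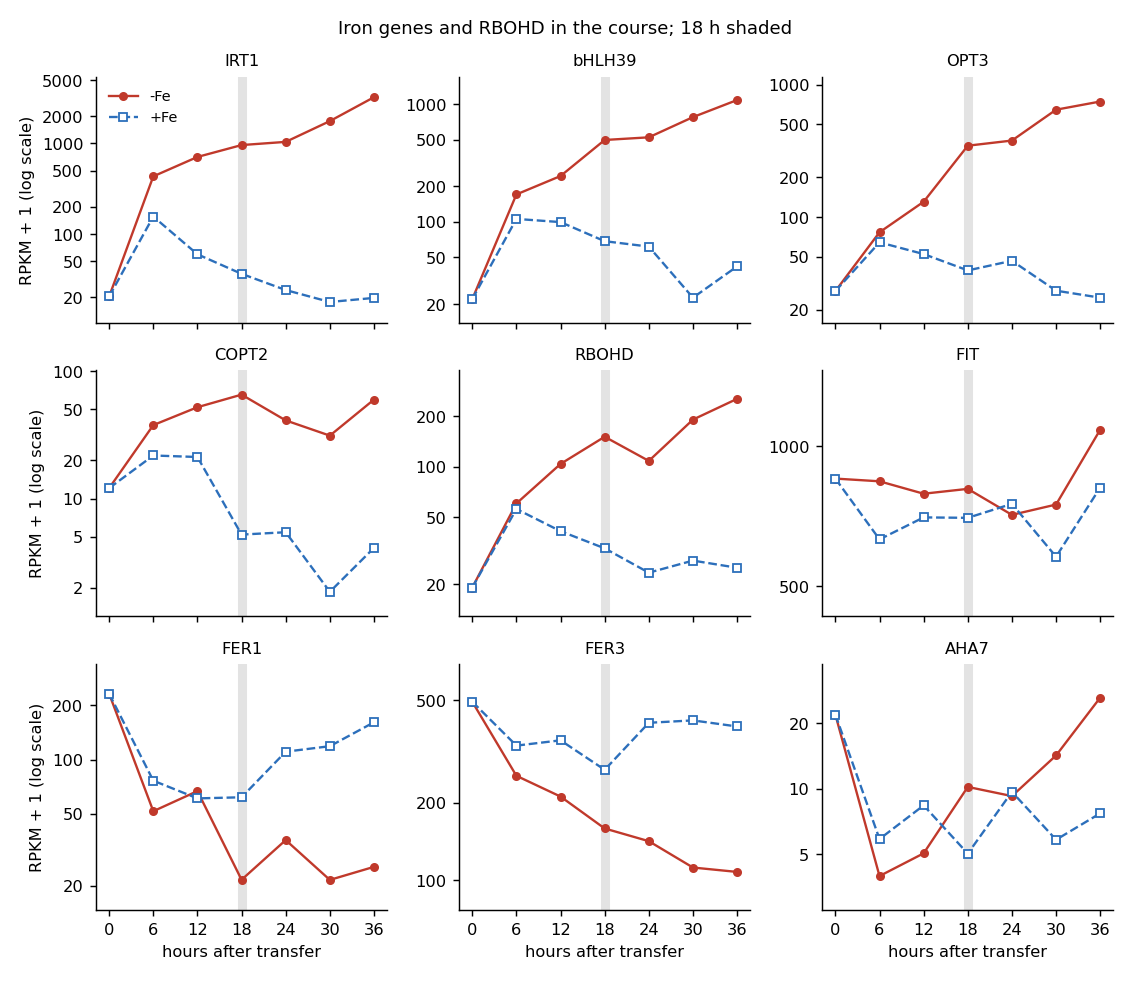
RPKM + 1 (vertical axes, log scale) of 9 genes at 0 h and at 6 to 36 h after transfer to -Fe medium (filled circles, solid lines) or +Fe medium (open squares, dashed lines), 1 value per group, with 18 h shaded. IRT1, bHLH39 and OPT3 lie higher at each later hour on -Fe medium, FIT varies between 711 and 1084 RPKM there, and FER1 and FER3 lie below 0 h at all 6 hours on either medium.

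Ferritin genes had the lowest median ratio of the gene lists. Of 11 genes listed for iron storage 3 were in the table and all 3 were lower at -Fe 18 h. Their median was -1.98, against 10.3% lower and a median of 0.02 over all genes. The list was chosen with earlier results of these data known. In a table of differentially expressed genes the count is no independent evidence of a direction. FER1 (AT5G01600; chr5:227953-230051) was at 20.6 RPKM at -Fe 18 h, 60.8 RPKM at +Fe 18 h and 230 RPKM at 0 h. Its ratio of -3.42 was the lowest of the table, an 11.2-fold difference, and its ratio on +Fe medium was -1.90. FER3 (AT3G56090) was at 158 RPKM at -Fe 18 h, 267 RPKM at +Fe 18 h and 492 RPKM at 0 h, ratios of -1.63 and -0.88. FER4 (AT2G40300), which shares 118 exon bases with AT2G40290 on the same strand and is less certain for that, was at 12.2 RPKM at -Fe 18 h, 30.3 RPKM at +Fe 18 h and 50.8 RPKM at 0 h, ratios of -1.98 and -0.73. On +Fe medium FER1 and FER3 were counted as lower and FER4 was not, against 13% lower over all genes. The list median there was -0.88. The ratios of -Fe 18 h to +Fe 18 h were -1.52 for FER1, -0.76 for FER3 and -1.25 for FER4.

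To show what lies before these genes, windows of 300 bases, from 250 before to 50 after the annotated start, were read from TAIR10.1. The G-box CACGTG, a site bound by bHLH and bZIP factors, occurred in 11 of the 88 higher genes (12.5%), 10 of the 83 lower genes (12.0%), 83 of the 806 genes (10.3%) and 6.46% of the windows of all annotated genes. It stood before 4 of the 12 higher iron uptake genes, among them OPT3 and bHLH38, and before 2 of the 3 ferritin genes, FER3 among them. The windows of OPT3, bHLH38 and FER3 are shown because the same letters precede genes that were higher and a gene that was lower. The first 2 are from higher genes and the last from a lower gene, all on the minus strand, written 5′ to 3′ with the G-box in capitals:
OPT3, chr4:9250294-9250593: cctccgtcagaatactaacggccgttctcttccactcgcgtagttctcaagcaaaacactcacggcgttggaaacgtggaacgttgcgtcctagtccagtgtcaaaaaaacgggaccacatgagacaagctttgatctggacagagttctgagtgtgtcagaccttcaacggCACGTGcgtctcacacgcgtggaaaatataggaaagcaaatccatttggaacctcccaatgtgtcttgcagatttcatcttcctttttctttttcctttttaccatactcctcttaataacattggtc
bHLH38, chr3:21085196-21085495: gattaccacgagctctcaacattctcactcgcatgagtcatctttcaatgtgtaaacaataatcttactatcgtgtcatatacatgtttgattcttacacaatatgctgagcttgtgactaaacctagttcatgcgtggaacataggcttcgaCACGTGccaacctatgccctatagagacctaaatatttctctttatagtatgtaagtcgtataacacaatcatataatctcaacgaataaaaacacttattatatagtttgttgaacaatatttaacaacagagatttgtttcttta
FER3, chr3:20815986-20816285: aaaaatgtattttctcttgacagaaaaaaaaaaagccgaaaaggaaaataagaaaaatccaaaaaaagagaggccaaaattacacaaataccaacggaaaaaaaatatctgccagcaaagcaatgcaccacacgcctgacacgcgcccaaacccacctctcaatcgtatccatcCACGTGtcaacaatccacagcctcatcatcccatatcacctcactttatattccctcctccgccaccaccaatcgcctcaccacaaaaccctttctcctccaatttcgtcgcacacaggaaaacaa
The first base of the G-box lay 78 bases before the start of OPT3, 97 before that of bHLH38 and 76 before that of FER3. The E-box CANNTG, which includes the G-box, was in 69.3% of higher, 61.4% of lower and 64.8% of all windows of the table. The copper core GTAC was in 44.3%, 37.3% and 40.8% of them, the PHR1 site GNATATNC in 5.68%, 8.43% and 6.45%, and the evening element AAAATATCT in 1.14%, 3.61% and 3.23%. Both strands were searched. A match is a description of the letters, and no binding was measured.

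Genes outside the iron lists also showed large rises. RBOHD (AT5G47910), the NADPH oxidase that makes extracellular superoxide, was at 150 RPKM at -Fe 18 h, 31.7 RPKM at +Fe 18 h and 18.1 RPKM at 0 h, ratios of 2.98 and 0.78. AT2G14247, an uncharacterized protein gene, was at 86.5 RPKM at -Fe 18 h, 5.72 RPKM at +Fe 18 h and 2.02 RPKM at 0 h, a ratio of 4.85 that was second only to that of IRT1. It shares 233 exon bases with AT2G06085 on the opposite strand. AT1G13609, a defensin-like gene, was listed at 0 at 0 h and was at 20.6 RPKM at -Fe 18 h and 0.75 RPKM at +Fe 18 h. It is among the genes that differed most between the media at this hour.

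Several more genes that were higher at -Fe 18 h lay within the limits on +Fe medium. They were chosen after their values were seen. GRF11 (AT1G34760), a general regulatory factor, was at 27.2 RPKM at -Fe 18 h, 2.61 RPKM at +Fe 18 h and 5.03 RPKM at 0 h, ratios of 2.22 and -0.74. The phloem protein gene PP2-A8 had ratios of 2.01 and 0.02, COBL6, a COBRA-like gene, 1.65 and 0.02, and the pectin methylesterase gene PME41 1.69 and 0.24. AT5G05250 had ratios of 1.70 and 0.05, AT1G12030 1.43 and 0.05, and ORG1 1.20 and 0.17. The ratio of GRF11 on +Fe medium lay close to the lower limit.

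Other rises were as large or larger on +Fe medium. AT1G21530, annotated in the family of AMP-dependent synthetases, was at 30.5 RPKM at -Fe 18 h, 31.5 RPKM at +Fe 18 h and 4.40 RPKM at 0 h, ratios of 2.54 and 2.59. NRT1.8 (AT4G21680), which retrieves nitrate from the xylem, was at 16.5 RPKM at -Fe 18 h, 64.2 RPKM at +Fe 18 h and 4.84 RPKM at 0 h, ratios of 1.58 and 3.48. PMT6 (AT4G36670), a polyol transporter, was at 20.6, 83.6 and 8.14 RPKM in these groups, ratios of 1.24 and 3.21. AGT (AT2G13360), the alanine:glyoxylate aminotransferase of peroxisomes, was at 10.7, 35.7 and 4.83 RPKM, ratios of 1.00 and 2.66. For these last 3 genes -Fe 18 h lay below +Fe 18 h although it was above 0 h. Among genes chosen after their values were seen, the peptide transporter gene PTR3 had ratios of 2.12 and 2.92, the lipase-like AT3G27950 2.11 and 2.59, and the RPW8 homolog gene HR3 1.87 and 2.47.

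**Figure D3:**
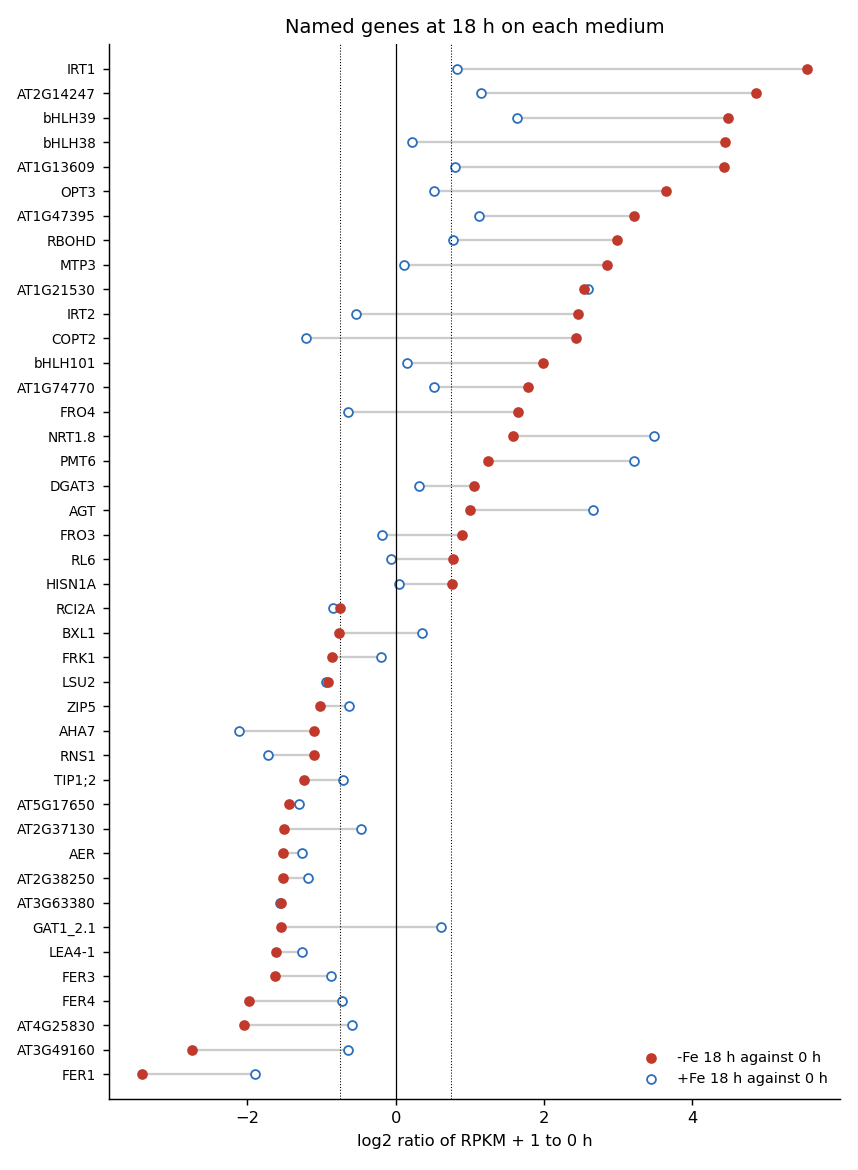
Log2 ratio of RPKM + 1 to 0 h (horizontal axis) for the reported genes of the naming rule past a limit, at -Fe 18 h (filled) and at +Fe 18 h (open), 1 row per gene ordered by the -Fe ratio, with dotted lines at 0.75 and -0.75. The points of IRT1 (5.55 and 0.83) and COPT2 (2.44 and -1.21) lie far apart, those of AT1G21530 (2.54 and 2.59) and AT3G63380 (-1.54 and -1.56) nearly coincide, and for NRT1.8 and PMT6 the open point lies to the right.

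Of 29 listed genes of sugar starvation and amino acid breakdown 11 were in the table, of which 0 were higher at -Fe 18 h and 1 was lower, with a median ratio of 0.37. Over all 806 genes 635 passed neither limit and the median was 0.02, so the count on -Fe medium sets the list little apart. At +Fe 18 h 8 of the 11 were higher than at 0 h and 0 lower, with a median of 1.28, against 16% higher and a median of 0.00 over all genes. DIN6 (AT3G47340), an asparagine synthetase induced in the dark, was at 813 RPKM at -Fe 18 h, 3756 RPKM at +Fe 18 h and 1352 RPKM at 0 h, ratios of -0.73 and 1.47. ProDH1 (AT3G30775), the first enzyme of proline breakdown, was at 6903 RPKM at -Fe 18 h, 14604 RPKM at +Fe 18 h and 6804 RPKM at 0 h, with a ratio of 0.02 on -Fe medium. MIOX4 (AT4G26260), an inositol oxygenase, was at 3.68 RPKM at -Fe 18 h, 91.0 RPKM at +Fe 18 h and 2.71 RPKM at 0 h, ratios of 0.33 and 4.63. DIN3 (BCE2, AT3G06850), a subunit of the branched-chain ketoacid dehydrogenase, had ratios of -0.03 and 1.65. BXL1 (AT5G49360), a cell wall xylosidase, was the 1 lower gene, at 49.5 RPKM at -Fe 18 h, 109 RPKM at +Fe 18 h and 84.9 RPKM at 0 h. Its ratio of -0.77 lay close to the limit and was not counted with a pseudocount of 10 (-0.67), after median centring (-0.68), with the mean of 12 h and 24 h (-0.63) or at a threshold of 1. The median of this list thus lay farther from 0 at +Fe 18 h than at -Fe 18 h.

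Of 19 listed nitrogen genes 7 were in the table. Of these 7 NRT1.8 was higher at -Fe 18 h and none was lower, while at +Fe 18 h 2 were higher and 3 lower than at 0 h. Over all genes 21.2% passed a limit at -Fe 18 h and 29.0% at +Fe 18 h, so the count of 1 on -Fe medium is near the background. NRT2.6 (AT3G45060), a nitrate transporter, was at 2.87 RPKM at -Fe 18 h, 180 RPKM at +Fe 18 h and 1.88 RPKM at 0 h, ratios of 0.42 and 5.97. The nitrate sensor and transporter NRT1.1 (AT1G12110) was at 285 RPKM at -Fe 18 h, 103 RPKM at +Fe 18 h and 319 RPKM at 0 h, ratios of -0.16 and -1.62. The nitrate reductase genes NIA1 and NIA2 had ratios of 0.10 and -0.64 on -Fe medium, and of -1.20 and -1.05 on +Fe medium.

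**Figure D4:**
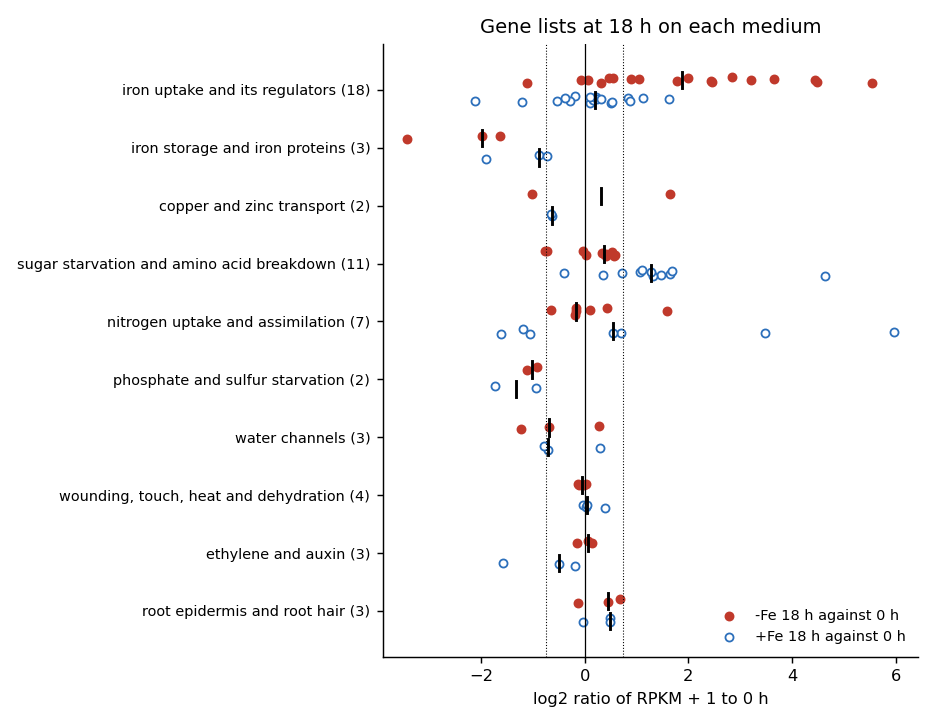
Log2 ratio of RPKM + 1 to 0 h (horizontal axis) for the listed genes in the table at -Fe 18 h (filled) and +Fe 18 h (open), 1 point per gene, with the median of each list as a black bar, the number of genes in brackets and dotted lines at 0.75 and -0.75. The medians at -Fe 18 h and +Fe 18 h are 1.89 and 0.19 for iron uptake, and 0.37 and 1.28 for sugar starvation and amino acid breakdown.

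The remaining lists had few genes in the table. RNS1 (AT2G02990), a ribonuclease of phosphate starvation, had ratios of -1.11 at -Fe 18 h and -1.72 at +Fe 18 h. LSU2 (AT5G24660), a gene of low sulfur, had -0.92 and -0.94. The zinc transporter gene ZIP5 (AT1G05300) had -1.01 and -0.62, and IRT3 (AT1G60960), a related zinc and iron transporter chosen after its values were seen, -0.92 and -0.47. Of the 21 water channel genes listed 3 were present and 1 was lower, TIP1;2 (AT3G26520) of the vacuolar membrane, at 1125 RPKM at -Fe 18 h, 1618 RPKM at +Fe 18 h and 2643 RPKM at 0 h. Of 4 genes of wounding, touch, heat and dehydration none passed a limit, and their ratios on -Fe medium ran between -0.13 (ERF4) and 0.03 (ERF6). Of 3 ethylene and auxin genes none passed a limit on -Fe medium. Over all genes 21.2% passed a limit at -Fe 18 h. With so few genes per list, these counts do not show the presence or absence of a response. None of the 30 clock genes and none of the 7 genes of low oxygen listed was in the table.

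Some of the lower genes lay within the limits on +Fe medium, though not at their 0 h level. GAT1_2.1 (AT1G15040), a glutamine amidotransferase, was at 111 RPKM at -Fe 18 h, 498 RPKM at +Fe 18 h and 327 RPKM at 0 h, ratios of -1.55 and 0.60. Its exons share 553 and 163 bases with 2 genes on the opposite strand, so its values are less certain. AT3G49160, of the pyruvate kinase family, was at 1.58 RPKM at -Fe 18 h, 10.1 RPKM at +Fe 18 h and 16.4 RPKM at 0 h, ratios of -2.75 and -0.64, and shares 291 exon bases with AT3G49155 on the opposite strand. AT4G25830, annotated as an uncharacterized protein of family UPF0497, was at 13.1 RPKM at -Fe 18 h, 37.6 RPKM at +Fe 18 h and 56.9 RPKM at 0 h, ratios of -2.04 and -0.59. AT2G37130, a peroxidase, was at 235 RPKM at -Fe 18 h, 483 RPKM at +Fe 18 h and 667 RPKM at 0 h, ratios of -1.50 and -0.47.

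A few more lower genes were chosen after their values were seen, the first of them a gene of heme synthesis. HEMA1 (AT1G58290), the glutamyl-tRNA reductase at the entry of tetrapyrrole synthesis, was at 112 RPKM at -Fe 18 h, 266 RPKM at +Fe 18 h and 263 RPKM at 0 h, ratios of -1.22 and 0.02. The transcription factor genes NAC042 (AT2G43000) and WRKY42 (AT4G04450) had ratios of -1.08 and -0.76 on -Fe medium, and of 0.14 and -0.26 on +Fe medium. Each of these 3 genes lay within the limits of 0 h on +Fe medium.

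A further set was lower to a like extent on both media. AT3G63380, a P-type ATPase gene, was at 21.2 RPKM at -Fe 18 h, 21.0 RPKM at +Fe 18 h and 63.6 RPKM at 0 h, ratios of -1.54 and -1.56. LEA4-1 (AT1G32560), a late embryogenesis abundant protein, had ratios of -1.61 and -1.26, AT2G38250, a homeodomain-like protein, -1.53 and -1.19, and AT5G17650, a glycine- and proline-rich protein, -1.44 and -1.30. AER (AT5G16970), an alkenal reductase, had -1.52 and -1.26 and shares 171- and 172-base stretches at 97.7% and 98.3% identity with 2 genes nearby, so its values are less certain. A group of 22 genes annotated as arabinogalactan proteins, expansins or pectin enzymes was formed after the values were seen. Of these, 5 were lower at -Fe 18 h (AGP7, AGP12, EXPA1, EXPB1 and PE11), against 10.3% over all genes, and PME41 was higher. The median was -0.33 against 0.02 over all genes. At +Fe 18 h 6 of the 22 were lower and 0 higher, against 13% and 16% over all genes. The median was the same, -0.33, so the group was not particular to -Fe medium. AGP7 was at 369 RPKM at -Fe 18 h, 343 RPKM at +Fe 18 h and 962 RPKM at 0 h, and EXPA1, an expansin that loosens cell walls, at 107, 84.0 and 265 RPKM. The metallothionein gene MT1C (AT1G07610) was lower on both media but unequally, at 203 RPKM at -Fe 18 h, 50.8 RPKM at +Fe 18 h and 385 RPKM at 0 h.

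Other annotated families were likewise grouped after the values were seen. Of 18 cytochrome P450 genes 5 were higher at -Fe 18 h and 3 lower, against 10.9% and 10.3% over all genes. Their median was 0.01. At +Fe 18 h the same 5 were higher and the same 3 lower, against 16% and 13% over all genes. The median of the 18 was 0.08 there. Among them CYP83B1 (AT4G31500), of indole glucosinolate synthesis, was at 111 RPKM at -Fe 18 h, 99.3 RPKM at +Fe 18 h and 37.0 RPKM at 0 h. CYP71A12 (AT2G30750), of camalexin and related indole compounds, was at 3.45 RPKM at -Fe 18 h, 4.91 RPKM at +Fe 18 h and 0.089 RPKM at 0 h, so its ratio of 2.03 rests on low values. Of 8 lectin genes 3 were higher and none lower, and of 6 genes with a cysteine/histidine-rich C1 domain 3 were higher and none lower, against 10.9% higher over all genes. At +Fe 18 h 4 of the 8 lectin genes and 4 of the 6 C1 domain genes were higher, against 16% over all genes. None of these genes was lower, against 13% over all genes. AT3G41979, which is annotated as a ribosomal RNA and has an identical copy elsewhere in the genome, so that its values are uncertain, was at 695 RPKM at -Fe 18 h, 741 RPKM at +Fe 18 h and 1529 RPKM at 0 h. Whether the share of ribosomal RNA bears on other differences was not tested.

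Within the course on -Fe medium 18 h was the highest of 7 values for 21 of the 88 higher genes and the lowest for 32 of the 83 lower genes. Over all 806 genes 18 h was the highest value for 146 and the lowest for 81, and for the higher genes the count was near that share. Both sets were chosen by their 18 h value against 0 h, so 0 h cannot be their extreme. Among all genes 188 were highest and 91 lowest at 0 h. The sets thus favour 18 h by construction, and the count of 32 does not show a low point at this hour. Of the higher genes 35 were highest at 36 h and 23 at 6 h, as were 190 and 160 of all genes. Of the 21 genes, 18 lay within the limits of 0 h at 24 h, and of the 32 genes, 27 did. Genes picked as most extreme at 18 h lie nearer to 0 h at other hours by construction. AT1G50060, a cysteine-rich secretory protein gene, was at 2350 RPKM at -Fe 18 h and 4792 RPKM at 0 h and again at 4384 RPKM at -Fe 24 h. AGP12, an arabinogalactan protein gene, was at 629 RPKM at -Fe 18 h and 1328 RPKM at 0 h, and at 1091 RPKM at -Fe 24 h. CYP83B1 was at 54.4 RPKM at -Fe 24 h and AT4G17610, an RNA methyltransferase gene, at 33.3 RPKM at -Fe 18 h, 13.5 RPKM at 0 h and 13.9 RPKM at -Fe 24 h. At +Fe 18 h these genes were at 1702, 658, 99.3 and 33.1 RPKM, in the order AT1G50060, AGP12, CYP83B1 and AT4G17610.

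**Figure D5:**
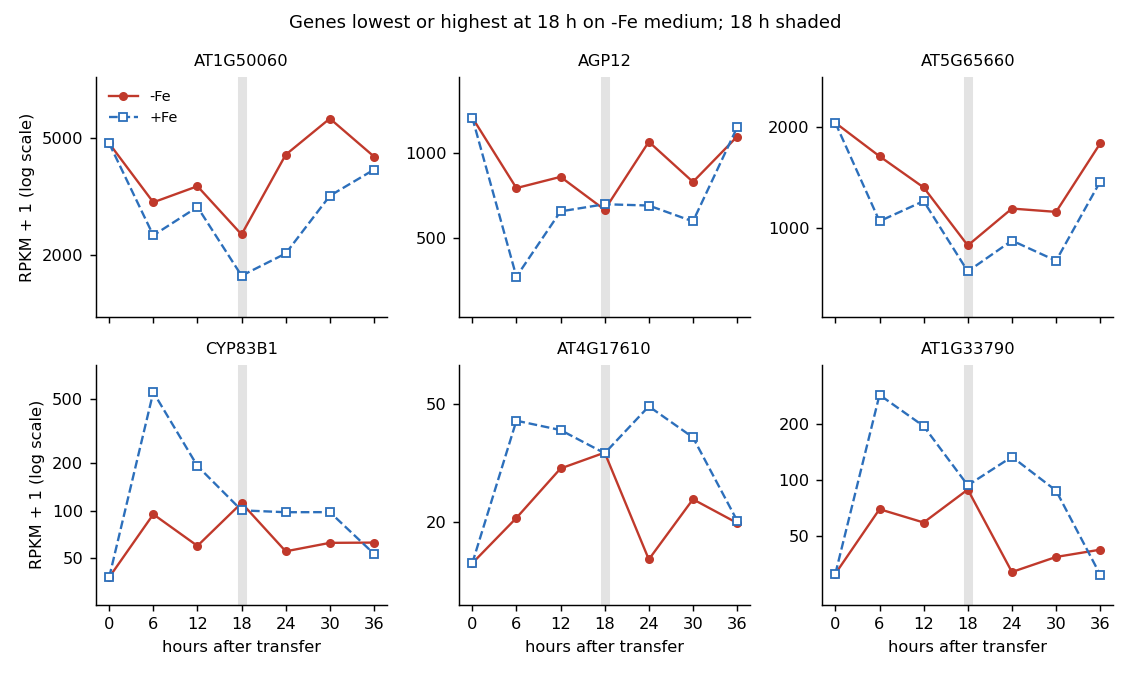
RPKM + 1 (vertical axes, log scale) of 6 genes at 0 h and 6 to 36 h after transfer to -Fe medium (filled circles, solid lines) or +Fe medium (open squares, dashed lines), 1 value per group, with 18 h shaded. The upper 3 genes are lowest and the lower 3 highest at 18 h among the 7 values on -Fe medium. AT4G17610 was at 13.9 RPKM at -Fe 24 h.

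Several genes of the iron lists, and AT1G13609 from outside them, went on to higher values after 18 h. IRT1 was at 432 RPKM at -Fe 6 h, 708 RPKM at 12 h, 959 RPKM at 18 h, 1039 RPKM at 24 h and 3237 RPKM at 36 h. OPT3 was at 75.7 RPKM at -Fe 6 h, 129 RPKM at 12 h, 345 RPKM at 18 h, 377 RPKM at 24 h and 745 RPKM at 36 h, and thus lay higher at each of these hours. AT1G13609 was at 2.11 RPKM at -Fe 6 h, 1.96 RPKM at 12 h, 20.6 RPKM at 18 h, 73.4 RPKM at 24 h and 277 RPKM at 36 h, and AT1G47395 at 0.65, 2.33, 8.26, 18.8 and 124 RPKM at these hours. COPT2 was highest at 18 h, at 64.3 RPKM, against 58.8 RPKM at -Fe 36 h. FER1 was at 50.8 RPKM at -Fe 6 h, 65.9 RPKM at 12 h, 20.6 RPKM at 18 h and 34.8 RPKM at 24 h, whereas at +Fe 24 h it was at 110 RPKM.

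The higher and lower genes differed in level and length. At 0 h the higher genes had a median of 22.7 RPKM, 42 of the 88 lay under 20 RPKM and none reached 1000 RPKM. The lower genes had a median of 250 RPKM. Over all 806 genes the median was 224 RPKM, 88 lay under 20 RPKM and 140 reached 1000 RPKM. The 0 h value is part of the ratio, so this is a description only. By exon length in TAIR10.1, the 202 shortest genes held 20 higher (9.90%) and 34 lower genes (16.8%). The 202 longest held 30 higher (14.9%) and 15 lower (7.43%). Over all genes these shares were 10.9% and 10.3%. At +Fe 18 h the 202 shortest held 27 higher and 39 lower, and the 202 longest 35 higher and 18 lower. Over all genes 16% were higher and 13% lower on that medium. The part of gene length in the counts was not tested. Of 30 pairs of neighbouring genes in the table, both members passed a limit in 3. The 21.2% of all genes past a limit is a share of single genes, so it is no measure for pairs. The 3 pairs were bHLH38 with bHLH39, IRT1 with IRT2, and AT5G44582 with AT5G44585. Both members of each pair were higher, and those of the last pair also at +Fe 18 h, with ratios of 2.27 and 1.64. So few pairs do not show that neighbours go together, which was not tested.

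Beside the limits lay genes that the threshold alone separates. RL6 (0.77) and HISN1A (0.75) were the last genes counted as higher, and AO1 (0.747) and GRV2 (0.74) were the first not counted. On the other side RCI2A (-0.75) was counted, and AT1G51035 and AT1G63840 (both -0.74) were not. FRK1 (AT2G19190), a receptor kinase gene of defense, had 0.61 RPKM at -Fe 18 h and 1.91 RPKM at 0 h, so that its ratio of -0.86 rests on low values.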

How the data were processed

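Per the methods and the submitters' processing notes, the authors used FastQC for read quality, fastq-mcf for trimming, TopHat2 for mapping (build TAIR10), RSubread for RPKM and edgeR for their own calls, which were not used. In the deposited table each of 806 genes has a single RPKM value per group. The way in which 3 libraries became that value, the read totals and the use of strand are not given in the sources used here. The planned test per library did not apply, and its stated replacement, counts of genes past a log2 ratio of 0.75 or -0.75, was used. All value columns matched a group.

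From the RPKM, log2 ratios of RPKM + 1 were computed. Members and gene lists were chosen with earlier results of these data known. The genes named are the 12 largest rises and 12 largest falls with at least 5 RPKM in 1 group, listed genes past a limit, the 6 past-limit genes differing most from +Fe 18 h in each direction, the 5 highest and 5 lowest 18 h values where past a limit (none of the highest was), and those nearest the limits, 47 in all, of which 1 is not reported here. Others are stated as chosen later, apart from listed genes within the limits and genes shown for their course or family. Symbols, exons, windows and near-identical stretches of at least 125 bases at 97% identity came from RefSeq's TAIR10.1 annotation (blastn 2.17.0). The table holds no coordinates, so those printed are of TAIR10.1. The ratio step was tested on simulated data. The alternatives were pseudocounts of 0.1 and 10, minimum means of 1 and 10 RPKM, median centring, a threshold of 1, +Fe 18 h as control, and the mean of 12 h and 24 h. Python 3.11.15, numpy 2.4.6, pandas 2.3.3 and matplotlib 3.10.9 were used.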

Additional observations from a re-analysis of the deposited data

Results flagged for a closer look

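COPT2, the copper importer gene, went in opposite directions from 0 h on the 2 media at 18 h, with a log2 ratio of 2.44 at -Fe 18 h and -1.21 at +Fe 18 h. Each ratio compares single group values against the same 0 h value, so the difference was not tested.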

How the results depend on the processing

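No paired analysis was possible because the table holds 1 value per gene and group. For the same reason no replicate could be left out. Against the 88 higher, 83 lower and 171 counted genes at -Fe 18 h, other settings gave other counts over all 806 genes, which need not be the same genes. A pseudocount of 10 gave 56 higher, +Fe 18 h as the control 55 higher, the mean of 12 h and 24 h in place of 18 h 43 higher and 101 in all, and a threshold of 1 gave 45 lower and 105 in all. For +Fe 18 h a threshold of 1 gave 60 lower and 154 in all, and the mean of 12 h and 24 h gave 204 higher. The other counts over all genes stayed within 1.5 times. Among iron uptake genes, the 1 lower gene, AHA7, was not counted with a pseudocount of 10 or a minimum mean of 10 RPKM (0 lower). With +Fe 18 h as the control AHA7 was higher (1.02), and the 1 lower member was F6'H1 (-0.81). The count of higher members stayed within 1.5 times in each setting. With +Fe 18 h as the control AHA7 stood among them and DGAT3 (0.746) did not.

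Of the 47 named genes, 9 changed sign with +Fe 18 h as the control and none in the other settings: AGT (-1.65), NRT1.8 (-1.90), PMT6 (-1.97), AT1G21530 (-0.049), RCI2A (0.10), AT3G63380 (0.015), RNS1 (0.62), AHA7 (1.02) and LSU2 (0.019). This control removes what both media share at 18 h. Another 10 then lay within the limits, 13 with the mean of 12 h and 24 h, 8 at a threshold of 1, 7 with a pseudocount of 10 and 3 after centring, which raised each -Fe ratio by 0.083. The unknown depth limits genes under 1 RPKM.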
